A study of Mus musculus with 6 samples.

Results

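The last step of reprogramming in this series led from SSEA1-sorted intermediates at day 12 to established induced pluripotent stem cells (iPSCs). It was followed on the 218231 autosomal regions (chromosomes 1 to 19) among the 223596 regions of the table, in 2 of the 6 libraries. All libraries came from female hybrid mouse cells, obtained by crossing Musculus mothers with an X-linked GFP reporter to Castaneus fathers, and started from mouse embryonic fibroblasts (MEFs) with an inactive GFP-bearing X chromosome. The MEFs carried lentiviral Oct4, Sox2, Klf4 and c-Myc under doxycycline control. Cells positive for SSEA1, a surface marker of cells on the way to pluripotency, were collected at days 8, 9, 10 and 12 under doxycycline and ascorbic acid. The iPSCs were derived from picked colonies, with doxycycline and ascorbic acid withdrawn after picking, although the listed iPSC medium still names ascorbic acid. SSEA1 sorting is named for the intermediates and not for the iPSCs, which were passaged after picking. The step from day 12 to iPSC therefore joined time, colony picking, passaging, factor withdrawal and sorting, which cannot be told apart. Each time point had 1 library, so no comparison has a replicate check and no p-value was computed.

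Reprogramming replaces the regulatory elements of a somatic cell with those of a pluripotent cell. The reprogramming factors bind DNA, fibroblast enhancers close, and enhancers of the pluripotency network open, some of them only when cells no longer depend on the introduced factors. Regions that are open in passing are also known from such time courses. ATAC-seq reads this out as the number of transposase insertions in a region, so a high count means accessible DNA. In a bulk library a lower count can mean fewer cells with an open region or a less open region in each cell, and these cannot be told apart. Neither the position of a region nor a nearby gene is in the table, only its chromosome, so regions are named here by their row number and marker genes of the cells could not be looked up.

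The day 12 library held 23902957 reads in autosomal regions and the iPSC library 21256394, with a median of 47 and 33 reads per region. Levels are normalised counts, reads divided by the authors' size factor for the library, and log2 values are of the normalised count plus 1. The 2 libraries differed in evenness. The SD of the log2 values over autosomal regions was 1.58 at day 12 and 2.05 in iPSC, and the lowest recovered value, 1 read, was held by 0.0999% of the regions at day 12 and 2.17% in iPSC. The 10% of regions highest in the library itself took 51.4% of the autosomal reads at day 12 and 56.2% in iPSC. The normalised counts of autosomal regions summed to 21514816 at day 12 and to 26637203 in iPSC. Scaling all libraries to equal autosomal sums lowered iPSC against day 12 by 0.31 on the log2 scale, and each result below is given with this scaling where it changes the reading.

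To describe the step as a whole, the log2 difference of iPSC minus day 12 was taken for every autosomal region. The median was 0.10, the middle of the distribution ran from -0.94 (percentile 25) to 0.74 (percentile 75), and percentiles 5 and 95 were -2.57 and 1.59. The distribution was therefore lopsided, with a long tail of losses beside a broad shoulder of small gains. With equal autosomal sums the median was -0.20 and the percentiles 5 and 95 were -2.89 and 1.29, so the sign of the median rested on the scaling, whereas the longer tail of losses was present under both. Taking 50 normalised counts as open, 73428 regions (33.6%) were open at both ends, 22236 (10.2%) at day 12 only, 24546 (11.2%) in iPSC only and 98021 (44.9%) at neither.

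**Figure D1:**
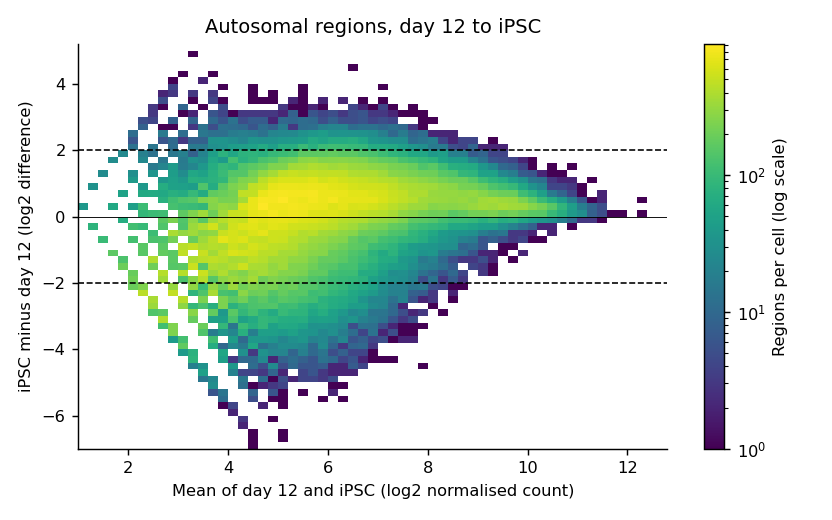
Log2 difference of iPSC minus day 12 (vertical axis) against the mean log2 normalised count of both libraries (horizontal axis) for the 218231 autosomal regions, with the colour of a cell giving its number of regions on a log scale and dashed lines at 4-fold. Losses reach -6.81 and lie at low and middle levels, gains reach 4.95, and the regions of highest level sit slightly above 0.

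Binned by the mean of the 2 libraries, the weakest regions were lower and stronger regions higher in iPSC. Among regions with a mean log2 level of both libraries below 3, the lowest bin, the median difference was -1.38. It was -0.33 between 4 and 5, 0.20 between 5 and 6, 0.46 between 6 and 7 and 0.60 between 8 and 9. At 10 and above it was 0.29. With equal autosomal sums the same bins had medians of -1.68, -0.63, -0.10, 0.16, 0.29 and -0.02, so the 5 to 6 bin and the top bin changed sign while the weakest bins stayed lower and the 6 to 9 range stayed higher in iPSC. This mean holds the same 2 values as the difference, and iPSC values were more spread, so the order of these bins is partly set by the binning. By day 10 level, the median differences were 0.71 below 3 and 0.53 between 3 and 4. They were -0.15 between 6 and 7, -0.25 between 7 and 8 and 0.18 at 10 and above. With equal autosomal sums these were 0.42, 0.23, -0.45, -0.56 and -0.12. Over the 41039 regions open in all 6 libraries the median difference was 0.35, or 0.04 with equal autosomal sums.

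To separate clear changes from these shifts, a region was called late opening when iPSC was at least 4-fold above day 12 (log2 difference of at least 2) with at least 50 normalised counts in iPSC. It was called late closing when iPSC was at least 4-fold below day 12 with at least 50 normalised counts at day 12. There were 2932 late opening regions (1.34% of the autosomal regions) and 10242 late closing regions (4.69%). Late opening regions were thus 22.3% of the changed regions. Under equal autosomal sums the split was more uneven, with 1235 opening (0.566%) and 16642 closing (7.63%), so that opening regions were 6.91% of the changed ones. For scale, the same rule gave 11 opening (0.00504%) and 40 closing regions (0.0183%) between days 9 and 10, and 1462 opening (0.67%) and 517 closing (0.237%) between days 10 and 12. These last figures share the day 12 library with the step described here.

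Large folds were also more common among closing regions. At 2-fold, 29095 regions opened (13.3%) and 20766 closed (9.52%). At 8-fold, 106 opened (0.0486%) and 3553 closed (1.63%), and at 16-fold 3 opened (0.00137%) and 888 closed (0.407%). Late opening regions had a median log2 difference of 2.23, with percentile 75 at 2.45, close to the limit. Late closing regions had a median of -2.68 and a percentile 25 of -3.24. Under equal autosomal sums closing outnumbered opening at every threshold, including 2-fold, where 17282 regions opened (7.92%) and 32454 closed (14.9%). At 8-fold it gave 33 opening (0.0151%) and 6238 closing regions (2.86%). Of these orders, only the excess of gains at 2-fold therefore depended on the scaling. Low levels were lower in iPSC, with percentile 10 of the log2 values at 2.86, than at day 12, at 3.86. The folds that could be reached thus differed by direction, and the part of this in the counts was not tested.

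**Figure D2:**
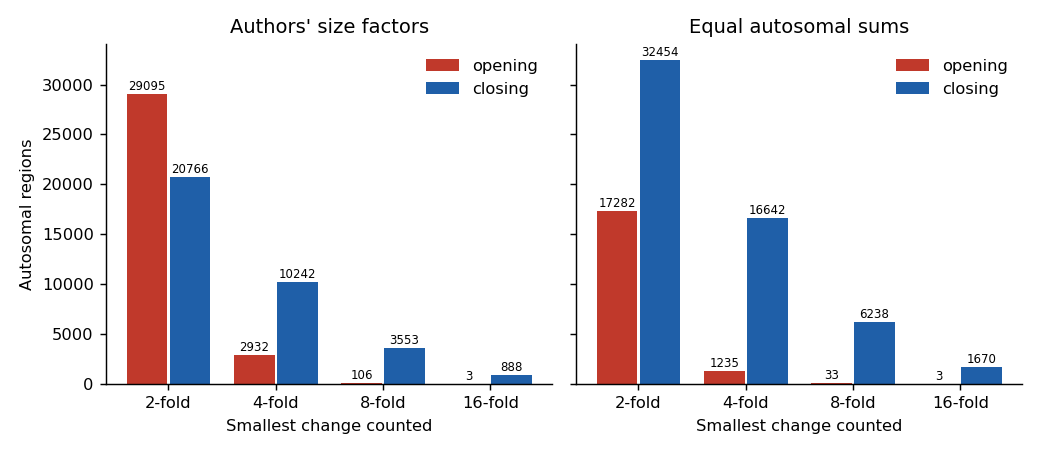
Number of autosomal regions that opened (red) or closed (blue) from day 12 to iPSC when changes of at least 2-, 4-, 8- or 16-fold are counted, with the authors' size factors (left) and with equal autosomal sums (right). At 8-fold 106 regions opened and 3553 closed on the left, and 33 and 6238 on the right.

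Since members were picked by a 4-fold difference between the same 2 libraries, most were bound to stand clear of counting error, and the intervals are given as a description of depth. Taking 2 reads as 1 fragment, since both ends of a fragment may be counted, the lower bound of the 95% exact interval of the ratio was above 2-fold for 2799 of the 2932 late opening regions (95.5%) and for 9201 of the 10242 late closing regions (89.8%). The intervals cover counting error only and say nothing of the variation between cultures. The limit itself cut through a continuous distribution. Just inside it, with log2 differences from 2 to 2.1, were 713 opening and 893 closing regions, and just outside it, from 1.9 to 2, were 985 and 892. At day 12, which the rule used, median log2 levels on either side were 5.28 inside and 5.24 outside for opening regions and 6.46 and 6.48 for closing regions. In MEFs, which it did not use, the regions just inside were lower than those just outside, at 4.40 and 4.76 for opening regions and 6.35 and 6.84 for closing regions. Open in MEFs were 29.6% inside and 33.4% outside for opening, and 59.0% and 64.7% for closing.

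The share of reads needs no size factor. Late opening regions held 0.553% of the autosomal reads at day 12 (95% Wilson interval 0.550% to 0.556%) and 2.22% in iPSC (2.22% to 2.23%). Late closing regions held 6.18% at day 12 (6.17% to 6.19%) and 0.706% in iPSC (0.702% to 0.709%). The rule fixed the direction of these changes. In the libraries it did not use, the opening regions held 0.418% in MEFs and 0.314%, 0.329% and 0.324% at days 8, 9 and 10. The closing regions held 6.68% in MEFs and 9.89%, 10.7% and 10.1% at days 8, 9 and 10. The closing regions thus took a larger share of the reads in the earlier intermediates than in MEFs or at day 12.

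The late opening regions were weak in all earlier libraries. In MEFs and on days 8, 9 and 10 their medians were 21.1, 19.9, 18.6 and 20.5 normalised counts, where all autosomal regions had 40.2, 45.2, 43.5 and 41.1. The median then rose to 31.5 on day 12 and 158 in iPSC. From day 8 to day 10, which the rule did not use, their median log2 difference was 0.04, beside -0.07 over all autosomal regions, and 0.15 beside 0.04 with equal autosomal sums. They were thus nearly level through the earlier intermediates. On the log2 scale, the median region had covered 22.9% of the way from the mean of days 8 to 10 to iPSC by day 12. This was computed over the 2851 regions whose iPSC level was at least 2-fold above that mean, and 25.9% of them had moved away from the iPSC level at day 12. The rule kept day 12 at least 4-fold below iPSC, which caps the share of the way that a member could have covered.

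**Figure D3:**
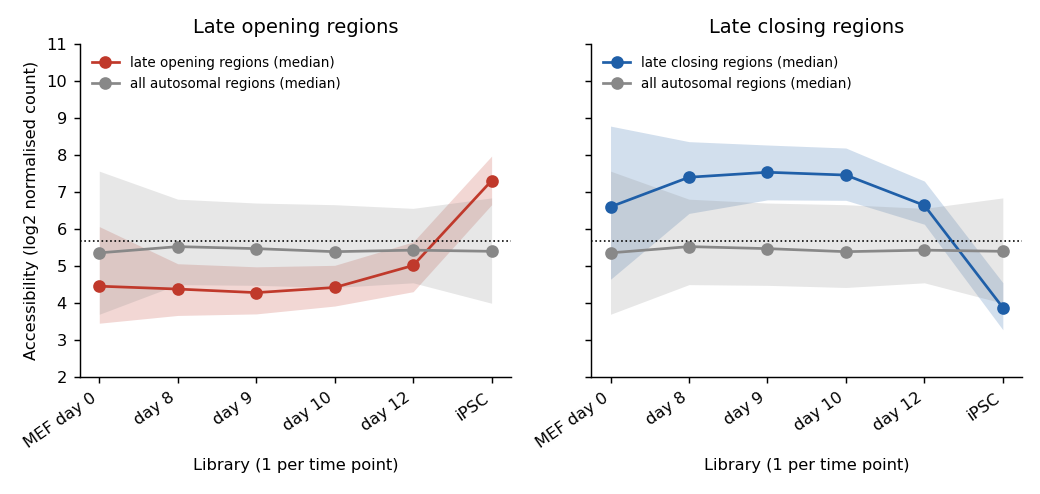
Log2 normalised count of late opening regions (left, red) and late closing regions (right, blue) in the 6 libraries, with points at the median and shading from percentile 25 to percentile 75, beside all autosomal regions in grey. The dotted line marks 50 normalised counts. Late opening regions lie below the grey median until day 12, and late closing regions lie above it in every library but iPSC.

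To see where the late opening regions had stood before, each was classed by whether it was open in MEFs and whether its mean over days 8, 9 and 10 was at least 50 normalised counts. Neither in MEFs nor in days 8 to 10 were 1876 of them open (64.0%), against 36.3% of all autosomal regions. A further 776 (26.5%) were open in MEFs and not in days 8 to 10, against 18.3% of all autosomal regions. Only 167 (5.70%) were open in days 8 to 10 alone and 113 (3.85%) in MEFs and in days 8 to 10. In all, 30.3% of the members were open in MEFs and 9.55% in days 8 to 10. Since all members had to be open in iPSC, the 97974 regions open in iPSC are the closer background, and of these 25.5%, 13.6%, 14.8% and 46.1% had the same histories in the same order. With equal autosomal sums the shares of late opening regions were 73.5%, 17.9%, 5.75% and 2.83%, beside 27.97%, 6.83%, 24.2% and 41.0% of the regions then open in iPSC.

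Read the other way, 7.52% of the iPSC-open regions that had been closed in MEFs and in days 8 to 10 were late opening, as were 5.83% of those open in MEFs only, 1.15% of those open in days 8 to 10 only and 0.250% of those open in both, where all iPSC-open regions had 2.99%. With equal autosomal sums the shares were 3.16%, 3.15%, 0.286% and 0.0832%, where all had 1.20%. The first 2 classes then had nearly the same share, while both remained above the classes open in days 8 to 10. A low level in days 8 to 10 goes with a low level at day 12, which the rule used, so part of this order follows from the rule.

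The regions nearest to the median course of each class show these histories, with normalised counts given in the order MEFs, days 8, 9, 10 and 12, and iPSC. For the class closed in MEFs and in days 8 to 10 this was row 13582 on chromosome 1, with 12.0, 18.1, 18.6, 15.8, 30.6 and 153. For the class open in MEFs only it was row 169161 on chromosome 6, with 141, 23.5, 17.8, 19.7, 24.3 and 112. The first was low in the 5 libraries before iPSC. The second closed by day 8 and came back in iPSC, with the authors' size factors to a level near that of MEFs. Over all autosomal regions the median log2 difference of iPSC minus MEFs was -0.18, or 0.78 with equal autosomal sums. How near iPSC came to MEFs therefore rests on the scaling. Their rise from day 12 to iPSC was 5.00-fold (95% exact interval 3.39 to 7.54) and 4.59-fold (2.95 to 7.35).

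Among those open earlier in reprogramming, row 23190 on chromosome 10 had 20.1, 83.3, 60.7, 54.5, 60.3 and 415 normalised counts in the same order, a 6.88-fold rise from day 12 to iPSC (5.28 to 9.08). Open in MEFs as well, row 144043 on chromosome 4 had 161, 71.5, 85.0, 74.2, 78.3 and 383, a 4.90-fold rise (3.85 to 6.29). Both were held at a moderate level through the intermediates and rose further in iPSC.

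The 2 strongest late opening regions in iPSC had already risen at day 12. One of them, row 141079 on chromosome 4, had 369 normalised counts in MEFs, then 127, 139.9, 141 and 338 from day 8 to day 12, and 1495 in iPSC, a 4.43-fold rise (3.94 to 4.99). The other, row 170659 on chromosome 6, had 127 in MEFs, then 49.8, 47.8, 86.1 and 344, and 1435 in iPSC, a 4.17-fold rise (3.71 to 4.70). Under equal autosomal sums their log2 differences were 1.84 and 1.75, below the limit.

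The 3 largest gains included 2 regions of very few reads at day 12. Better covered was row 173919 on chromosome 6, with 1 read in MEFs, then 1, 10, 20 and 21 from day 8 to day 12, and 341 in iPSC, a 22.6-fold rise in normalised counts (14.6 to 37.0). By contrast, row 73793 on chromosome 15 had 59 reads in MEFs, then 7, 6, 4 and 1, and 46 in iPSC, a ratio of 64.0 (10.9 to 2584). Likewise, row 68223 on chromosome 14 had 21 reads in MEFs, then 10, 11, 7 and 2, and 42 in iPSC, a ratio of 29.2 (7.61 to 249). The first stayed below 50 normalised counts through day 12, at 18.9, before it reached 427 in iPSC, and the other two held fewer reads at day 12 than in MEFs.

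The rule placed iPSC at least 4-fold above day 12, so a high rank of iPSC among the libraries was largely set by it. As a description, the iPSC library was the highest of the 6 for 85.1% of the late opening regions and MEF day 0 for 14.4%, beside 45.9% and 37.8% of all regions open in iPSC. In iPSC 76.2% were at least 2-fold above MEFs (85.4% with equal autosomal sums), 16.3% were within 2-fold (11.9%) and 7.47% at least 2-fold below (2.66%). Over all regions open in iPSC 44.2% were at least 2-fold above (58.9%). Of the members, 48.3% were below 50 normalised counts in every library before iPSC, beside 14.6% of the regions open in iPSC and 27.7% of all autosomal regions, with the low day 12 level favoured by the rule.

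The late closing regions had been accessible throughout the earlier intermediates. In MEFs, on days 8, 9, 10 and 12 and in iPSC their medians were 96.4, 168, 185, 175, 99.0 and 13.8 normalised counts. The regions open at day 12, from which all members came, had medians of 122, 115, 113, 114, 106 and 127 in the same order. Late closing regions were therefore above these at days 8 to 10 and below them in MEFs. From day 8 to day 10 their median log2 difference was 0.12, beside -0.07 over all autosomal regions (0.23 beside 0.04 with equal autosomal sums).

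Their fall had begun at day 12. From day 10 to day 12 the median log2 difference of the late closing regions was -0.77, where all autosomal regions had -0.07 and late opening regions 0.62, with the day 12 library used in the rule as well. By day 12 the median late closing region had covered 20.4% of the log2 way from the mean of days 8 to 10 to iPSC, over the 10226 regions at least 2-fold above iPSC in that mean, a share that the rule caps in the same way. In iPSC 480 of the 10242 (4.69%) were still open by the cutoff of 50 normalised counts.

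By history, 5968 late closing regions (58.3%) were open in MEFs and in days 8 to 10, and 3827 (37.4%) in days 8 to 10 only. The remaining 334 (3.26%) and 113 (1.10%) were open in MEFs only and in neither. Among all 95664 regions open at day 12 these shares were 57.9%, 22.5%, 8.38% and 11.2%. With equal autosomal sums the order of the first 2 classes turned round, with 7219 late closing regions (43.4%) open in MEFs and in days 8 to 10 and 8359 (50.2%) in days 8 to 10 only, beside 44.3% and 33.6% of all regions open at day 12. Which class was the larger thus rested on the scaling. Under both scalings, regions open in MEFs and in days 8 to 10 were about as common among late closing regions as among all regions open at day 12, whereas regions open in days 8 to 10 only were more common. Regions open in MEFs were 61.5% of the late closing regions, beside 66.3% of all regions open at day 12. Those open in days 8 to 10 were 95.6%, beside 45.4% of all autosomal regions, which unlike the members did not have to be open at day 12. At day 10 alone, 97.5% of the late closing regions were open, beside 81.3% of all regions open at day 12. Open on each of days 8, 9 and 10 were 88.3% of the late closing regions and 72.9% of all regions open at day 12.

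As a share of the regions open at day 12, 17.8% of those open in days 8 to 10 only closed late, 10.8% of those open in MEFs and in days 8 to 10, 4.17% of those open in MEFs only and 1.06% of those open in neither, where all had 10.7%. The order was the same with equal autosomal sums, at 20.9%, 13.7%, 9.10% and 2.32%, where all had 13.9%. Of the regions open at day 12 that had been open in none of the 4 earlier libraries, 38 of 8661 (0.439%) closed late. Regions first open at day 12 were thus the least often lost in iPSC among these classes. The regions open in neither MEFs nor days 8 to 10 were also weaker at day 12, with a median of 66.6 normalised counts beside 106 for all regions open at day 12, and the part of this in their low share was not tested.

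**Figure D4:**
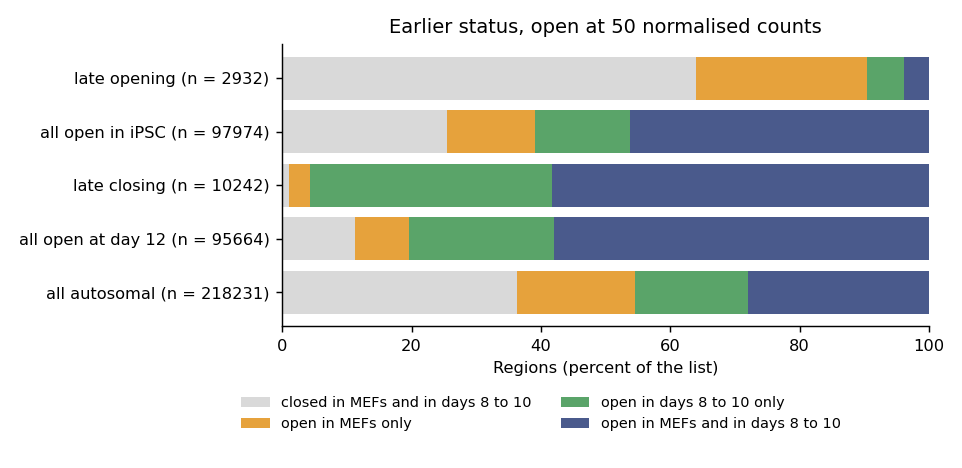
Share of regions by earlier status (horizontal axis, percent of the list) for late opening and late closing regions, for the regions open in iPSC and at day 12 from which each list was drawn, and for all autosomal regions. Grey marks 64.0% of the late opening regions, green marks 37.4% of the late closing regions and 22.5% of all regions open at day 12.

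The late closing regions open in days 8 to 10 only had their highest level on day 8 in 51.0% of cases and on days 9, 10 and 12 in 27.0%, 20.9% and 1.07%. Their medians were 18.1 normalised counts in MEFs, 209.96, 198, 173 and 86.4 from day 8 to day 12, and 12.5 in iPSC. All regions open at day 12 with this history also fell from day 8 to day 12, with medians of 142, 131, 121 and 90.9. A rise after MEFs follows from the definition of this class, and the fall in iPSC from the rule. The iPSC median was about as low as that of MEFs. Those open in MEFs and in days 8 to 10 were highest in MEFs in 57.7% of cases, with medians of 303 in MEFs, 157, 189.9, 189 and 116 from day 8 to day 12, and 15.0 in iPSC. In this class the level was held from day 8 to day 10 and lost afterwards. The size factor of MEF day 0 was the lowest of the 6, at 0.498, and equal autosomal sums lowered MEFs more than any other library, so the size of any step from MEFs to day 8 rests on the scaling.

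Typical members follow the same courses. Open in days 8 to 10 only, row 51829 on chromosome 13 had 16.1 normalised counts in MEFs, then 178, 196, 162 and 77.4 from day 8 to day 12, and 12.5 in iPSC, which was 6.18-fold below day 12 (95% exact interval 3.20 to 13.3). Open in MEFs too, row 121131 on chromosome 2 had 327 in MEFs, then 154, 198, 182 and 115, and 17.5 in iPSC, or 6.57-fold below day 12 (3.77 to 12.4). In both, day 12 was below days 8 to 10 and far above iPSC.

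Of the rarer classes, row 5911 on chromosome 1, open in MEFs only, had 406 normalised counts in MEFs, then 26.2, 38.5, 51.3 and 63.0, and 8.77 in iPSC, or 7.18-fold below day 12 (3.31 to 18.5). Closed in MEFs and in days 8 to 10, row 190926 on chromosome 7 had 14.1 in MEFs, then 31.7, 43.5, 49.0 and 57.6, and 11.3 in iPSC, or 5.11-fold below day 12 (2.53 to 11.7). Both had climbed slowly from day 8 to day 12, just past the cutoff of 50, before they closed.

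The 3 largest losses were regions of high level through day 12. On chromosome 9, row 209535 had 124 reads in MEFs, then 717, 730, 719 and 280 from day 8 to day 12, and 1 in iPSC, a ratio of day 12 to iPSC of 201 in normalised counts (35.8 to 7972). On chromosome 13, row 53386 had 48 reads in MEFs, then 548, 789, 747 and 400, and 2 in iPSC, a ratio of 144 (39.5 to 1190.3). On chromosome 12, row 48089 had 18 reads in MEFs, then 351, 425, 444 and 246, and 1 in iPSC, a ratio of 177 (31.4 to 7007). In normalised counts, all were higher on days 8, 9 and 10 than in MEFs, and all were left with at most 2 reads in iPSC. At day 12 row 209535 was back near its MEF level, with 252 normalised counts beside 249 in MEFs. These ratios have wide intervals because so few reads remained. The lowest value in every library was 1 read, so a value of 1 may stand for a region without reads, which the intervals do not cover.

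The 2 late closing regions of highest level at day 12 were also strong in MEFs. The first, row 83103 on chromosome 16, had 1602 normalised counts in MEFs, then 1797, 1690.5, 2053 and 1113 from day 8 to day 12, and 45.1 in iPSC, or 24.7-fold below day 12 (17.7 to 35.4). The second, row 4880 on chromosome 1, had 5843 in MEFs, then 2289.6, 1955, 2070.1 and 834, and 147 in iPSC, or 5.69-fold below day 12 (4.69 to 6.96). This last region was among the late closing regions that remained open in iPSC by the cutoff of 50.

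Late opening and late closing regions stood at different levels at day 10, a library the rule did not use. Late opening regions were 2.78% of the regions with a day 10 log2 level between 3 and 4, 2.35% between 4 and 5, 1.19% between 5 and 6, 0.389% between 6 and 7 and 0.0722% between 7 and 8, with no member among the 12534 regions between 8 and 9. Late closing regions were 0.0413% between 4 and 5, 1.15% between 5 and 6, 7.55% between 6 and 7, 17.0% between 7 and 8 and 17.9% between 8 and 9. Above this peak the share fell again, to 11.3% between 9 and 10 and 3.41% at 10 and above. The strongest regions of day 10 were therefore lost less often than those of middle to high level. Under the equal-sum scaling the peak lay between 7 and 8, at 22.7%, with 4.50% at 10 and above. Weak regions cannot pass the minimum for closing unless they rise at day 12, so the low end of the closing curve is set by the rule. The level at day 10 also goes with that at day 12, which the rule used, so part of both curves follows from the rule.

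**Figure D5:**
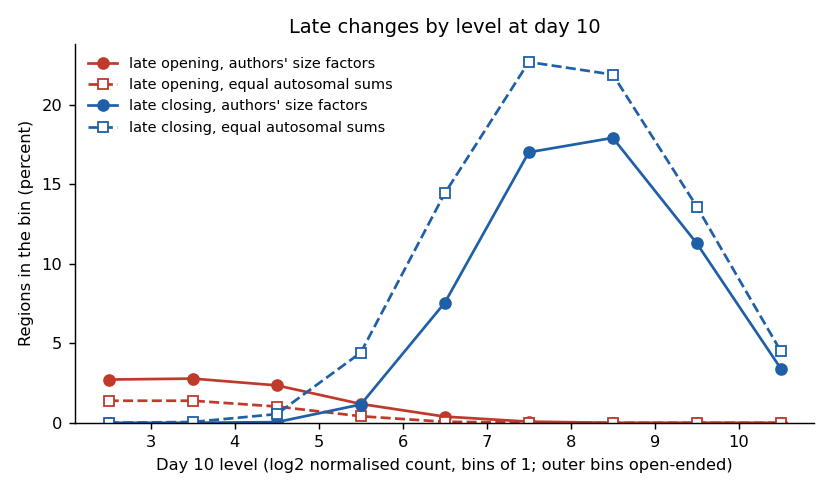
Share of autosomal regions in each bin of day 10 level (horizontal axis, log2 normalised count) that were late opening (red) or late closing (blue), with the authors' size factors (filled, solid) and equal autosomal sums (open, dashed). Opening is at its highest, 2.78%, in the bin from 3 to 4, and closing at 17.9% in the bin from 8 to 9. The first bin holds all regions below 3 and the last all regions at 10 and above.

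Levels in MEFs differed less sharply between the directions. Late closing regions rose from 1.81% of the regions with a MEF log2 level below 3 to 4.81% between 5 and 6, 6.91% between 8 and 9 and 9.12% between 9 and 10, with 7.23% at 10 and above. Members had to be open at day 12, and 66.3% of all regions open at day 12 were open in MEFs. Over all autosomal regions this was 46.4%, so part of the rise follows from the rule. Of the late closing regions, 61.5% were open in MEFs, fewer than among all regions open at day 12. Late opening regions were 1.93% between 3 and 4, 1.20% between 6 and 7 and 0.106% at 10 and above. In iPSC, 72.7% of the late closing regions were at least 2-fold below MEFs (59.3% with equal autosomal sums), 21.99% within 2-fold (27.4%) and 5.31% at least 2-fold above (13.3%). Of all regions open at day 12, 34.1% were at least 2-fold below MEFs in iPSC (17.5% with equal autosomal sums). Most late closing regions ended at least 2-fold below their fibroblast level under both of these scalings. Their low iPSC level was largely set by the rule.

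The autosomes were alike in this step. Late opening regions made up 1.04% (chromosome 11) to 1.78% (chromosome 18) of the regions of an autosome and late closing regions 4.05% (chromosome 10) to 5.11% (chromosome 15). The X chromosome, left out of the lists, had 5.43% opening and 1.14% closing among its 5357 regions, outside the range of the 19 autosomes in both directions. Chromosomes of 1 library are not replicates, and this difference was not tested.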

How the data were processed

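ATAC-seq was measured in 6 libraries, 1 per time point, grouped by the time point in the labels. The authors ran the ENCODE ATAC-seq pipeline on reads aligned to GRCm38/mm10, joined alignments and peaks with DiffBind 3.8 into 1 count matrix and deposited log2 values of counts divided by DESeq2 1.21.22 size factors. Values were not split by allele. All 6 value columns entered.

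The deposited log2 values were turned back into normalised counts by raising 2 to them and subtracting the pseudocount of 1. In each library they were whole multiples of 1 step (100.0% within 0.001), which gave reads and size factors. Read totals over all regions ranged from 22067333 to 32844411. Log2 differences on this scale understate the change of weak regions. With 1 library per group no test was possible, and a fixed rule was used (4-fold, 50 normalised counts in the higher library). Named regions were, in each direction, the 3 of largest difference, the 2 of highest level and the region nearest to the median course of each of 4 histories. The lists and limits were chosen with earlier results of these data known. Wilson intervals (shares of reads) and Clopper-Pearson intervals (ratios of reads) at 95% cover counting error only, as reads amplified by PCR do not stand for independent molecules. Intervals of read shares and of named regions counted each read, and the intervals counted over the lists took 2 reads as 1 fragment. The rule, the recovery of reads and the intervals were tested on simulated data. Alternatives were other scalings, thinned reads, a pseudocount of 10, 2-fold and 8-fold limits and minimum levels of 20 and 100. Python 3.11.15, numpy 2.4.6, pandas 2.3.3, scipy 1.17.1 and matplotlib 3.10.9 were used.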

Additional observations from a re-analysis of the deposited data

How the results depend on the processing

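With 1 library per time point, no replicate could be left out and culture variation is unknown; median depths of 47 and 33 reads per region limit weak regions most. No paired analysis was possible because each time point had 1 library. Closing outnumbered opening under every alternative except the 2-fold limit. Of the 90 values of named regions under other settings, 76 stayed within their counting interval, taken over single reads, and none changed sign. The cause of the shifts was not tested.

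Values are given as opening regions, closing regions, opening share of changed regions, median log2 difference, opening regions open in MEFs and in days 8 to 10, and closing regions open in MEFs and in days 8 to 10, leaving out counts within 1.5 times the reported one and shares and medians within their counting interval. Equal autosomal sums gave 1235, 16642, 6.91%, a median of -0.20 in place of 0.10, 20.7% of opening regions open in MEFs, and 47.0% and 93.6% of closing regions. Size factors from regions open in all 6 libraries gave 1029 opening regions, 6.67%, a median of -0.23, 20.1% and 8.16% of opening and 48.2% and 96.7% of closing regions. Quantile normalisation gave an opening share of 24.8%, a median of 0.12, 4.85% of opening regions open in days 8 to 10 and 97.0% of closing regions. Thinned reads gave 24.5%, 25.0% and 6.61% of opening regions and 59.5% of closing regions open in MEFs. A pseudocount of 10 gave 1283, 6399, 16.7%, a median of 0.079, 13.4% of opening regions open in days 8 to 10, and 64.5% and 97.5% of closing regions. The 2-fold limit gave 29095, 20766, 58.4%, 39.6% and 29.2% of opening regions, and 94.4% of closing regions open in days 8 to 10. The 8-fold limit gave 106, 3553, 2.90%, 33.0% and 2.83%, and 96.5%. A minimum of 20 gave 17414 closing regions, 16.9%, 54.3% and 44.8% of opening and 71.1% and 96.1% of closing regions. A minimum of 100 gave 5004 closing regions, 30.6%, 17.1% and 2.81%, and 58.8% and 96.9%. The open cutoff moved with these minimums, and 65.6% of all autosomal regions were open in MEFs at 20 and 34.5% at 100. In days 8 to 10 the same shares were 78.8% and 26.1%. With equal autosomal sums 35.9% of all autosomal regions were open in MEFs, in place of 46.4%, and 51.5% in days 8 to 10, in place of 45.4%. The shares of the lists thus moved along with a background that also moved.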

Other observations

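Neighbouring rows of the table tended to share a late change. The preceding row on the chromosome was also late closing for 12.0% of the late closing regions, where 4.69% of all autosomal regions were members, and also late opening for 5.12% of the late opening regions, where 1.34% were members. The table gives no positions, so the distance between neighbouring rows is unknown.

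The 10% of autosomal regions highest at day 10 took 53.6% of the autosomal reads at day 10, 48.9% at day 12 and 44.6% in iPSC, close to the 46.2% in MEFs. Choosing the regions at day 10 favoured a higher share there than in other libraries. The 10% highest in each library itself took 65.1% in MEFs, 51.4% at day 12 and 56.2% in iPSC.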
